A study of Mus musculus with 16 samples.

Results

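The outer ring of the 20S proteasome core is built from alpha subunits, and the 8 genes that encode them in the mouse, Psma1 to Psma8, were followed here in oocytes and eggs that carried or lacked Psma7. The members were found by gene name, as the rows named Psma1 to Psma8 in a table of 27987 gene names (28618 entries), and each name had 1 entry. Wildtype (WT) females carried no Cre according to their labels, and Psma7 cKO females were Psma7 flox/flox with a Zp3-Cre transgene. Zp3-Cre is driven by the promoter of a zona pellucida gene, so recombination starts in growing oocytes and the follicle cells around them keep Psma7. All mice were C57BL/6 females of 3 to 4 weeks that had received 5 IU PMSG, a hormone that makes follicles grow. GV oocytes, which are arrested with an intact nucleus called the germinal vesicle, were taken 44 h later. MII eggs are arrested at metaphase of the second meiotic division. The libraries labelled MII came from oviducts 14 to 16 h after hCG, the hormone that triggers ovulation. Their eggs were freed of cumulus cells with 0.3% hyaluronidase. The paper reports that part of the ovulated Psma7 cKO oocytes stopped before metaphase II. Whether the Psma7 cKO MII pools held such cells is not given in the sources used here. Each of the 4 groups (WT GV, Psma7 cKO GV, WT MII and Psma7 cKO MII) had 4 libraries of pooled oocytes, with 5 oocytes per sample according to the labels. The number of females behind a pool is not given in the sources used here, so p-values measure the spread between pools.

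The 20S core is a barrel of 4 stacked rings, with alpha rings at the ends and beta rings, which hold the proteolytic sites, in the middle. Alpha subunits assemble first, with the help of dedicated chaperones, and the finished alpha ring then serves as the base on which the beta ring is built. Its centre is a gate that stays closed until a regulatory particle such as the 19S docks in the pockets between neighbouring alpha subunits. PSMA7 is the alpha-4 subunit, and PSMA8 is a form of alpha-4 known from male germ cells, where it takes the place of PSMA7 in proteasomes of spermatogenesis. Growing oocytes store large amounts of mRNA, transcription has ceased by the fully grown GV stage, and many stored transcripts are degraded or given longer poly(A) tails during maturation to the egg.

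The entries are in FPKM, the number of fragments on a transcript divided by its length and by the size of the library, so each value is a share of its library per unit of transcript length. Fewer intact oocytes in a pool and less RNA per oocyte cannot be told apart from these values, and the table holds 0 entries for the ERCC spike-in RNA that was added at lysis. Depth, estimated from the steps between the smallest values, was 10.5 to 15.7 M fragments per library, and 9044 to 11299 entries per library reached 1 FPKM. All 12 oocyte markers were present in every group. Of 16 granulosa cell markers, 14 or 15 stayed below 1 FPKM in every library of a group, and their summed level was 9.46 to 12.0 FPKM in WT GV, 12.3 to 14.1 in Psma7 cKO GV, 13.2 to 15.3 in WT MII and 13.2 to 15.7 in Psma7 cKO MII. The sums did not overlap between genotypes in GV oocytes, and their part in the GV results was not tested. Cyp19a1 was the marker above 1 FPKM in all groups. In eggs, 7 of the 16 were at 0 in every WT MII library and 5 in every Psma7 cKO MII library. Amh, Amhr2 and Foxl2 were among those in both genotypes. Others were detected in eggs, such as Has2 and Vcan at means of 0.0906 and 0.0471 FPKM in WT MII. Their means in Psma7 cKO MII were 0.0352 and 0.0289 FPKM. The 4 blood cell markers found summed to 1.14 to 3.83 FPKM, apart from WT MII replicate 1 at 10.95. Psma7 cKO eggs did differ among themselves. A set of 392 transcripts had at least 10 FPKM in WT GV oocytes and fell over 10-fold in WT eggs. The members, the proteasome genes listed further below and the markers were left out of it, and proteasome genes in no list were not. Of the WT GV level of these transcripts, WT MII libraries kept a median of 6.57% to 7.27%, low values that follow from the rule. Psma7 cKO MII replicates 1 to 4 kept 10.3%, 8.71%, 30.8% and 15.9%, so replicate 3 was far above the rest and replicate 4 came next. The genotype differences of the members in eggs are given with and without replicates 3 and 4, a choice made after seeing the data.

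In GENCODE M21 (GRCm38), the Psma7 gene lies at chr2:180036374-180042433 on the minus strand, and its principal transcript has 7 exons and 914 nt. The other members are scattered, with Psma1 on chromosome 7, Psma2 on 13, Psma4 on 9, Psma5 on 3, Psma8 on 18, and Psma3 and Psma6 15.6 Mb apart on chromosome 12. The coding sequences of Psma7 and Psma8 were identical at 74.8% of aligned bases, against 57.1% to 62.8% in the other 27 pairs of members. No 50-base stretch of the Psma1, Psma6, Psma7 or Psma8 transcript occurred in another gene of that annotation. In contrast, 55.4% of such stretches of Psma5, 31.5% of Psma4, 22.0% of Psma3 and 3.53% of Psma2 also occurred in other annotated genes, mostly gene models with Gm names. Of these, Gm8394, which shares sequence with Psma5, held 19.2 to 32.9 FPKM and Gm13835, which shares it with Psma3, held 1.54 to 10.4 FPKM, so the levels of Psma3, Psma4 and Psma5 are less certain than those of Psma1, Psma6 and Psma7.

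The upstream sequences of Psma7 and Psma1 are shown because these were the only members called different between genotypes in eggs. They are the 250 bases before the RefSeq start (GRCm38.p6), chr2:180042465-180042714 on the minus strand for Psma7 and chr7:114276117-114276366 on the minus strand for Psma1, with CCAAT boxes (bound by NF-Y) in capitals, read as CCAAT on the printed strand or ATTGG where the box lies on the other.
Psma7: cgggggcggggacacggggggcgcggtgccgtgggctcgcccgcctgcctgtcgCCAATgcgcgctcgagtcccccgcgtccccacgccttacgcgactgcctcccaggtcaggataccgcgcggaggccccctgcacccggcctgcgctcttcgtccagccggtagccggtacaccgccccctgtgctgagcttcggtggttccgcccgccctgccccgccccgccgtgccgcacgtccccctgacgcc
Psma1: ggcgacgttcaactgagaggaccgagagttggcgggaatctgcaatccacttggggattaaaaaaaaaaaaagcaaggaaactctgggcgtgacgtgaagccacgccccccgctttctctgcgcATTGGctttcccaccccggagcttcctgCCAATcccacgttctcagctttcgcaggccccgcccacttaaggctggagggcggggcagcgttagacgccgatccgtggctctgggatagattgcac
The motifs were searched on both strands in windows from 250 bases before to 50 bases after the start, which were at hand for 7 members (8 windows, with 2 for Psma6). TGACNNNGC, the core of the antioxidant response element read by Nfe2l1 and Nfe2l2, was in 0 of the 8 windows and in 12.4% of all 32851 windows. CCAAT was in windows of Psma1, Psma2, Psma3, Psma6 and Psma7 and in 37.4% of all. CCGGAAG, an ETS family motif, was in 1 Psma6 window and in 8.86% of all. No matches overlapped one another, and a match describes the sequence only.

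The 3′ ends of the transcripts bear on the stage comparison, because stored oocyte mRNAs are polyadenylated through short U-rich elements near the poly(A) signal. The searched elements, TTTTAT and TTTTAAT, were chosen after the values were known. In the last 100 bases of the principal transcript, at least 1 of them was present in Psma1 and Psma5 only among the 7 members other than Psma7, and in 17.9% of 19358 protein-coding transcripts with a 3′ UTR of at least 100 bases. The sites are printed as DNA from GENCODE M21 (GRCm38) transcripts, with the element in capitals, at chr7:114264658-114264687 (minus strand) for Psma1 and chr3:108279911-108279940 (plus strand) for Psma5. The Psma6 site at chr12:55418422-55418451 (plus strand) shows the poly(A) signal AATAAA in capitals in a member whose last 100 bases held neither element.
Psma1: tataccaatgtTTTTATatgaagaaaataa
Psma5: tgtgtgtgtttTTTTATgaagtctgtacat
Psma6: gactctgtataAATAAAacagtgcttttgg
These windows are those of the annotated ends, and the ends used in oocytes were not measured.

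Psma7, the targeted gene, was low in all 4 Psma7 cKO GV libraries. Its FPKM in WT GV oocytes was 153.9, 142.0, 200.6 and 163.6 in replicates 1 to 4, and in Psma7 cKO GV oocytes it was 14.5, 14.7, 11.1 and 17.98. The groups did not overlap, and the highest Psma7 cKO library held far less than the lowest WT library. The means were 165.0 ± 25.3 and 14.6 ± 2.82 FPKM (SD, n = 4), so Psma7 cKO GV oocytes held 8.83% of the WT level (exact permutation test, two-sided, p = 0.0286, the smallest that 4 libraries against 4 allow). In limma the log2 fold change was -3.51 ± 0.15 (SE, 95% confidence interval -3.85 to -3.18, adjusted p = 8.98e-07). The Psma7 values in Psma7 cKO GV libraries rest on an estimated 159 to 197 fragments each. The table gives 1 value per gene and does not separate exons, so the fragments left cannot be placed inside or outside the deleted part.

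In eggs Psma7 was again lower in Psma7 cKO, but with a much wider spread. WT MII eggs had 118.5, 115.9, 97.7 and 172.1 FPKM, and Psma7 cKO MII eggs had 13.6, 50.3, 34.98 and 59.9. The groups did not overlap, but Psma7 cKO replicate 1 sat at the level of the Psma7 cKO GV oocytes while replicates 2, 3 and 4 were above all of those. The means were 126.0 ± 32.1 and 39.7 ± 20.2 FPKM (SD, n = 4), which puts Psma7 cKO eggs at 31.5% of WT (exact permutation p = 0.0286). The log2 fold change was -1.83 ± 0.41 (SE, limma adjusted p = 0.0359). Without Psma7 cKO MII replicates 3 and 4 it was -2.24 (adjusted p = 0.0468). The call was lost in 5 of the 8 fits that left out 1 library (WT MII replicate 1, 2, 3 or 4, or Psma7 cKO MII replicate 3), and the 8 adjusted p-values ran from 0.0254 to 0.101. In those 5 fits the calls over all entries fell from 761 to 12, 114, 3, 39 and 317, in that order.

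**Figure D1:**
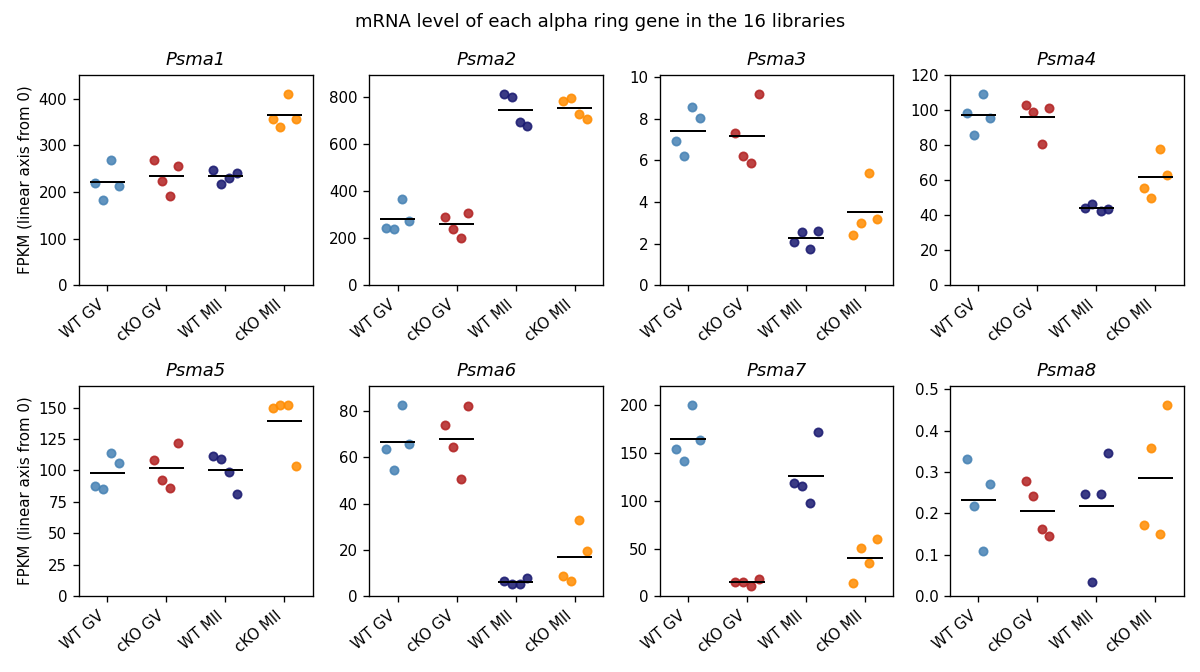
FPKM (linear axes from 0) of the 8 alpha ring genes in each of the 16 libraries, with points for libraries and a black line for the mean of the 4 libraries in a group. Psma7 sits at 11.1 to 17.98 FPKM in Psma7 cKO GV oocytes and at 142.0 to 200.6 in WT GV oocytes, Psma2 is high in all 8 egg libraries, Psma6 is low in eggs with replicates 3 and 4 of Psma7 cKO above the rest, and Psma8 stays below 0.5 FPKM.

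The remaining alpha subunits were then compared between genotypes at the GV stage. Psma6 (alpha-1), Psma2 (alpha-2), Psma4 (alpha-3), Psma5 (alpha-5), Psma1 (alpha-6) and Psma3 (alpha-7) are the partners of Psma7 in the ring, and none of the 6 was called in either direction in Psma7 cKO GV oocytes (limma, adjusted p 0.847 to 0.978, with 0 of 6 at an unadjusted p under 0.05). Of all 11062 entries tested at this stage, 0.0994% were called higher and 0.0181% lower, so few calls were made at all. The log2 fold changes of these 6 genes ran from -0.12 for Psma2 to 0.09 for Psma1, with a median of -0.00 beside 0.04 over all entries. The 95% confidence intervals bound the differences that these libraries could have missed. They ran from -0.21 to 0.39 for Psma1, from -0.48 to 0.24 for Psma2, from -0.43 to 0.30 for Psma3, from -0.26 to 0.21 for Psma4, from -0.24 to 0.35 for Psma5 and from -0.34 to 0.37 for Psma6.

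Levels of the partners in GV oocytes show how closely the genotypes lay. Psma1 was 219.1, 182.0, 268.8 and 212.1 FPKM in the WT replicates, and Psma7 cKO had 268.7, 222.6, 191.9 and 255.8. Psma4, whose protein contributes a tail to the gate of the ring, was 98.4, 85.8, 109.3 and 95.4 in the WT replicates, and Psma7 cKO had 102.9, 98.7, 80.7 and 101.1. The ranges of both genes overlapped between genotypes. Summed over the members other than Psma7, the GV alpha ring held 773 ± 128 FPKM (SD, n = 4) in WT, beside 768 ± 121 in Psma7 cKO. Within libraries, Psma7 made up 17.6% ± 0.17 of the summed alpha ring FPKM in WT GV oocytes, a share that varied far less between pools than the FPKM itself, and 1.86% ± 0.16 in Psma7 cKO GV oocytes.

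In eggs 1 of the 6 partners, Psma1, was called. Psma1 was 247.0, 217.5, 229.5 and 240.2 FPKM in WT MII and 355.3, 339.8, 409.8 and 355.9 in Psma7 cKO MII. Every Psma7 cKO egg library lay above every WT egg library, and also above all 8 GV libraries. The means were 233.6 ± 12.9 and 365.2 ± 30.6 FPKM (SD, n = 4), a log2 fold change of 0.64 ± 0.07 (SE, limma adjusted p = 0.0133), or 1.56-fold, and the exact permutation p was 0.0286. Of 9492 entries tested in eggs, 6.53% were called higher and 1.49% lower, and Psma1 was the single call among the 6 partners, 1 of 6 higher and 0 of 6 lower. Without Psma7 cKO MII replicates 3 and 4 its log2 fold change was 0.57 (adjusted p = 0.0339). Leaving out WT MII replicate 3 took its adjusted p to 0.0528, in a fit in which the calls over all entries fell from 761 to 3.

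The other 5 partners did not pass the test in eggs, and all 5 had higher means in Psma7 cKO. Psma4 was 44.1, 46.6, 42.3 and 43.6 FPKM in WT MII and 55.8, 50.2, 77.8 and 63.1 in Psma7 cKO MII, without overlap, at a log2 fold change of 0.46 ± 0.12 (SE, limma adjusted p = 0.0519), and at 0.26 (adjusted p = 0.119) without Psma7 cKO replicates 3 and 4. Psma5 was 111.2, 108.8, 98.96 and 81.4 in WT MII and 149.3, 152.3, 151.7 and 103.3 in Psma7 cKO MII, at 0.47 ± 0.15 (adjusted p = 0.0780), and at 0.60 (adjusted p = 0.0503) without those 2 libraries. Only Psma7 cKO replicate 4 fell within the WT range of Psma5. Psma6 was 6.45, 5.46, 5.13 and 7.70 in WT MII and 8.58, 6.75, 33.1 and 19.7 in Psma7 cKO MII, at 1.19 ± 0.45 (adjusted p = 0.121). Without Psma7 cKO replicates 3 and 4, the 2 libraries with the highest kept level of transcripts that fall in WT eggs, the log2 fold change of Psma6 was 0.32 (adjusted p = 0.354). Psma6 itself met the rule for such transcripts, at 9.27% of its WT GV level in WT eggs. Leaving out libraries chosen by that rule is therefore no independent check of its difference. Psma3 had a log2 fold change of 0.59 ± 0.25 (adjusted p = 0.154), and 0.28 without those libraries. Psma2, the most abundant member, was 815.0, 801.4, 696.5 and 678.9 in WT MII and 786.1, 797.9, 731.5 and 709.5 in Psma7 cKO MII, at 0.02 with a 95% confidence interval of -0.16 to 0.20, and at 0.09 without replicates 3 and 4. The median log2 fold change of the 6 partners in eggs was 0.53 beside 0.07 over all entries, and 0.30 beside 0.07 without those libraries.

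**Figure D2:**
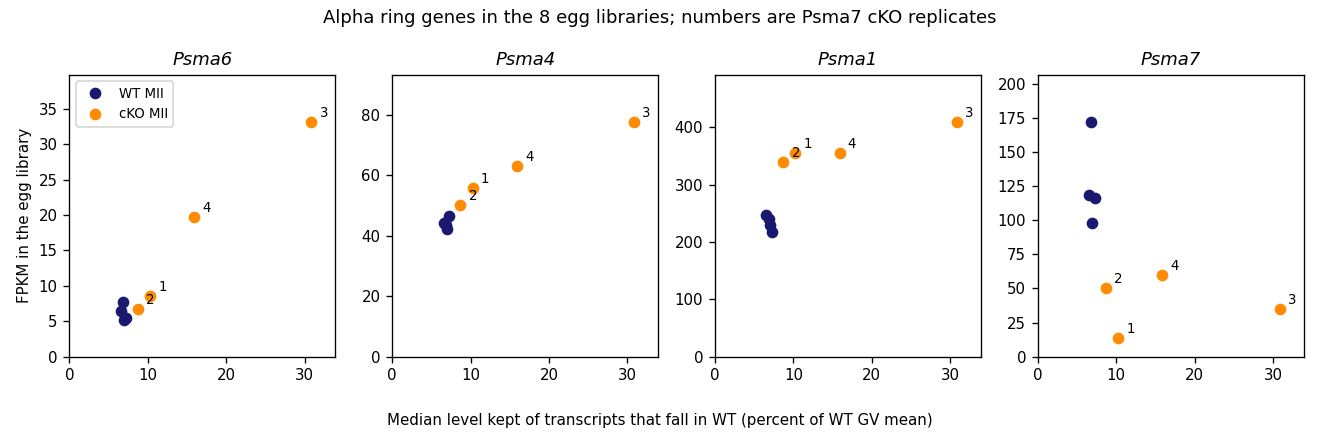
FPKM of Psma6, Psma4, Psma1 and Psma7 (vertical axes, linear from 0) in the 4 WT MII and 4 Psma7 cKO MII libraries against the median level that each library kept of 392 transcripts that fall in WT (percent of the WT GV mean). Psma6, Psma4 and Psma1 are highest in Psma7 cKO replicate 3, which kept 30.8%, and Psma1 and Psma4 are above WT in all 4 Psma7 cKO libraries, including replicates 1 and 2, which kept 10.3% and 8.71%.

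Whether the genotype difference itself changed with stage was tested by the genotype by stage interaction over all 16 libraries. None of the 7 members tested was called (limma, adjusted p 0.0847 to 0.791), beside 1.07% of 10615 entries called positive and 0.188% negative. The interaction estimate was positive for all 7, largest for Psma7 at 1.68 ± 0.47 (SE, adjusted p = 0.0847) and 0.55 ± 0.17 for Psma1 (adjusted p = 0.10), with 4 of 7 at an unadjusted p under 0.05 (Psma1, Psma4, Psma6 and Psma7), beside 17.7% of all entries. Without Psma7 cKO MII replicates 3 and 4 the interaction was 1.27 for Psma7 (adjusted p = 0.234) and 0.48 for Psma1 (adjusted p = 0.261). The call of Psma1 in eggs and its absence in GV oocytes therefore do not show that the genotype difference changed between stages. When Psma7 cKO MII replicate 1 was left out, the interaction of Psma7 was 2.13 (adjusted p = 0.00270).

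**Figure D3:**
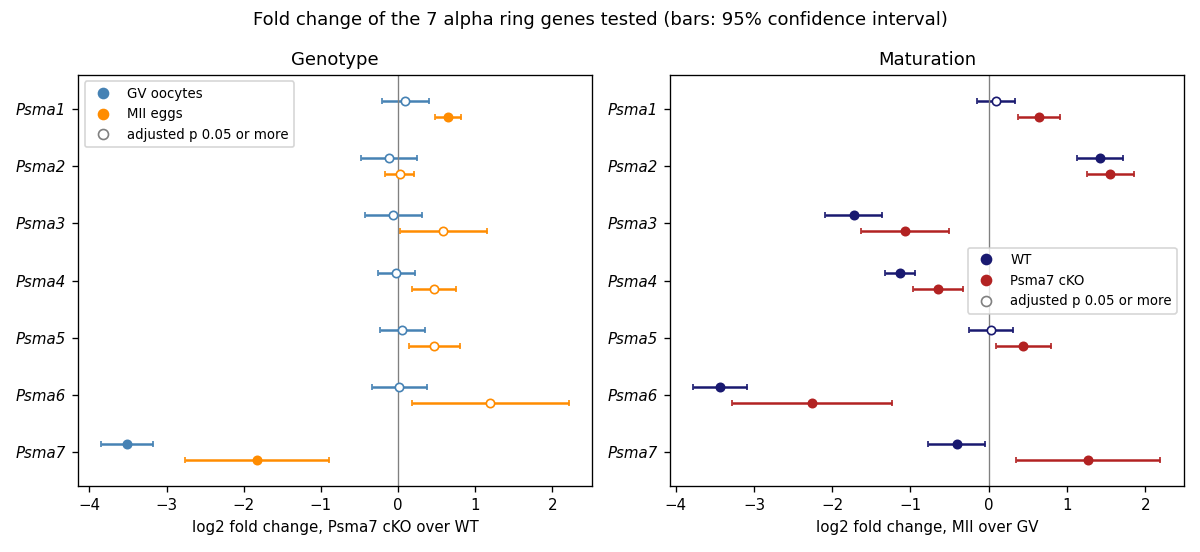
log2 fold changes of the 7 members tested, with 95% confidence intervals, for Psma7 cKO over WT in GV oocytes and MII eggs (left) and for MII over GV in WT and Psma7 cKO (right). Filled points passed a limma adjusted p of 0.05. In GV oocytes Psma7 alone lies away from 0, and in maturation Psma2 lies above 0 and Psma3, Psma4 and Psma6 below 0 in both genotypes.

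Maturation from GV oocyte to egg moved the members apart in WT. Psma2 rose from 245.5, 242.0, 369.7 and 275.0 FPKM in WT GV oocytes to between 678.9 and 815.0 in WT MII eggs, a log2 fold change of 1.42 ± 0.13 (SE, limma adjusted p = 2.62e-06). Psma6 fell from 63.7, 54.6, 82.8 and 65.7 FPKM to between 5.13 and 7.70, a change of -3.43 ± 0.16 (adjusted p = 9.72e-09). Neither gene overlapped between stages. Psma3 fell by 1.72 and Psma4 fell by 1.13 on the log2 scale (adjusted p = 2.81e-06 and 4.73e-07), also without overlap. Psma7 fell by 0.41 (adjusted p = 0.0407), but its libraries overlapped between stages (exact permutation p = 0.114), and the call was lost in 6 of the 8 fits that left out 1 library (all except WT GV replicate 2 and WT MII replicate 4). Psma1, at 0.10, and Psma5, at 0.03, were not called. So 1 of 7 members was called higher and 4 of 7 lower, beside 26.1% and 52.4% of 10475 entries, shares at which a call by itself sets no gene apart.

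These maturation values are relative to a library whose make-up also changes, since the median over all entries was -0.44. After rescaling each library by the median ratio of its expressed entries the median of all entries was -0.14, a shift of 0.31. Under that scaling Psma2, Psma3, Psma4 and Psma6 kept direction and call, Psma7 was at -0.11 and no longer called, and Psma1 and Psma5 were called higher at 0.39 and 0.33. Rescaling moved the members and the median entry by nearly the same amount, so it does not test their position relative to that median. Psma1, Psma2, Psma5 and, by a small margin, Psma7 lay above the median entry. Of these Psma1 and Psma5 hold a TTTTAT element in the 3′ window and Psma2 does not. Over its whole annotated 3′ UTR, however, Psma2 holds 3 TTTTAAT elements. Psma3 and Psma4, which fell, hold 1 TTTTAAT and 1 TTTTAT in theirs. The part of the elements in the change was not tested. The cDNA was primed with oligo-dT, so a longer poly(A) tail and more copies of a transcript cannot be told apart.

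In Psma7 cKO, all 7 members tested were called between stages, 4 higher and 3 lower, beside 23% and 51% of 10748 entries. Psma2 rose by 1.56 and Psma1 by 0.65 on the log2 scale (limma adjusted p = 9.19e-06 and 0.000841). Psma5 rose by 0.44 (adjusted p = 0.0281), a call lost in 5 of the 8 fits without 1 library (Psma7 cKO GV replicates 2 and 3 and Psma7 cKO MII replicates 1, 2 and 3). Psma3 fell by 1.07, Psma4 fell by 0.65 and Psma6 fell by 2.26 (adjusted p = 0.00360, 0.00261 and 0.00149). Without replicates 3 and 4 of the eggs, Psma3 fell by 1.38, Psma4 fell by 0.85 and Psma6 fell by 3.13. Psma7 itself was higher in Psma7 cKO eggs than in Psma7 cKO GV oocytes, at 1.27 ± 0.41 (SE, adjusted p = 0.0188), although egg replicate 1, at 13.6 FPKM, lay within the GV range and the exact permutation p was 0.114. That call was lost without those 2 egg libraries (0.87, adjusted p = 0.104), without Psma7 cKO GV replicate 3 and without Psma7 cKO MII replicate 4 (adjusted p up to 0.0552).

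The order of the levels within a group is set per transcript length, and so depends on the lengths that the authors' annotation gave. In WT GV oocytes the order of mean FPKM was Psma2 (283.1 ± 59.6), Psma1 (220.5 ± 36.0), Psma7 (165.0 ± 25.3), Psma5 (98.1 ± 14.0), Psma4 (97.2 ± 9.68), Psma6 (66.7 ± 11.7), Psma3 (7.42 ± 1.06) and Psma8 (0.232 ± 0.094) (SD, n = 4). The ranges of Psma2 and Psma1, of Psma1 and Psma7, and of Psma5 and Psma4 overlapped, so those neighbours were not separated by the spread, although Psma2 exceeded Psma1 and Psma1 exceeded Psma7 within all 4 libraries. In WT MII eggs the order of the members was the same, with overlapping ranges for Psma7 and Psma5 (Psma7 above in 3 of 4 libraries), but Psma2 alone made up 59.3% ± 2.79 of the summed alpha ring FPKM, against 30.03% ± 1.65 in WT GV oocytes, and Psma6 fell from 7.10% ± 0.19 to 0.491% ± 0.094. In Psma7 cKO GV oocytes Psma7 came below Psma6 and above Psma3, overlapping neither. In Psma7 cKO MII eggs it came after Psma4 and before Psma6, with ranges that overlapped Psma4 above and Psma6 below. Psma3, at 1.76 to 9.19 FPKM over all libraries, was low for a ring partner, and its annotated transcripts run from 312 to 2846 nt, which makes its FPKM the most dependent on the length used.

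**Figure D4:**
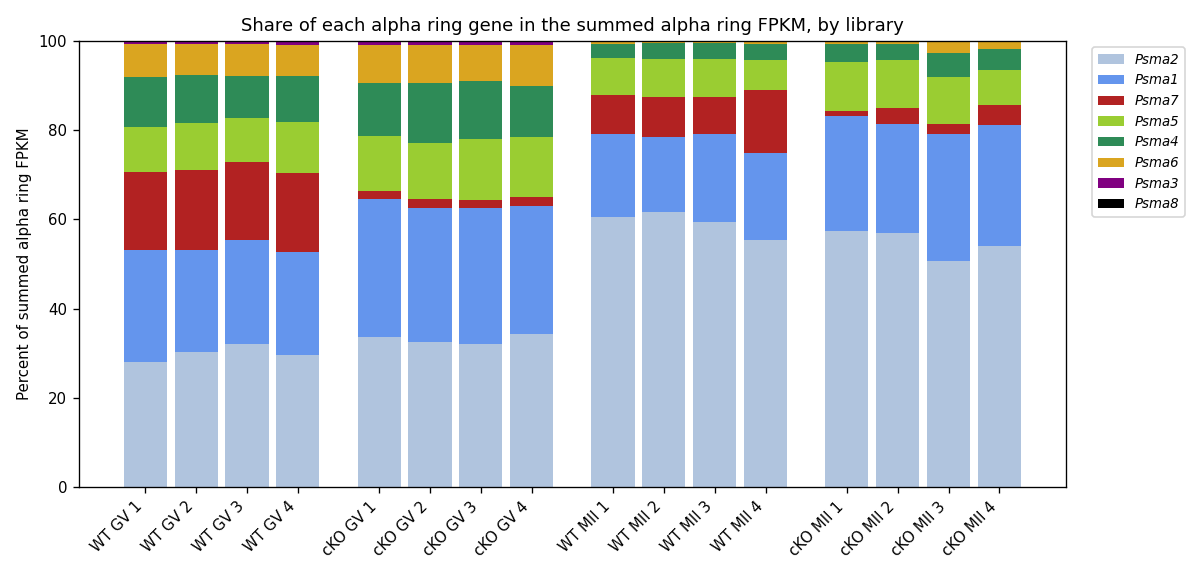
Share of each member in the summed alpha ring FPKM of each of the 16 libraries, in percent, stacked to 100. Psma7 takes 17.4% to 17.8% of the 4 WT GV bars, 1.68% to 2.00% where Psma7 cKO GV bars are drawn, 8.34% to 14.0% of the WT MII bars and 0.993% to 4.56% of the Psma7 cKO MII bars, and Psma2 takes more than 50% in every egg library.

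Psma7 shares in eggs varied more than in GV oocytes. Psma7 made up 8.81%, 8.93%, 8.34% and 14.0% of the summed alpha ring FPKM in WT MII eggs and 0.993%, 3.59%, 2.42% and 4.56% in Psma7 cKO MII eggs. WT replicate 4 was the high library in WT and Psma7 cKO replicate 1 the low one in Psma7 cKO. Summed over the members without Psma7, the alpha ring held 1134 ± 83.0 FPKM in WT and 1343 ± 64.3 in Psma7 cKO eggs (SD, n = 4), where replicates 1 and 2 alone held 1358 and 1350.

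Psma8, the alpha-4 form of male germ cells, stayed below 1 FPKM in every library. It was 0.331, 0.217, 0.110 and 0.271 FPKM in WT GV, 0.278, 0.242, 0.162 and 0.145 in Psma7 cKO GV, 0.246, 0.0347, 0.248 and 0.346 in WT MII, and 0.173, 0.357, 0.151 and 0.463 in Psma7 cKO MII. All 16 values lay below the floor of 1 FPKM, so Psma8 was not tested, and the 4 groups overlapped. These values correspond to an estimated 0.857 to 10.3 fragments per library, and the size of difference that could be seen at so few fragments was not tested. The highest Psma8 value of any library, 0.463 FPKM, was small beside the lowest Psma7 value in Psma7 cKO, 11.1 FPKM.

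The profiles of the members across the 16 libraries were compared by the root mean square difference of centred log2 values, over 10615 entries. The entries nearest to Psma7 were Gm36352 (1.115), LOC108167991 (1.14), Mlf1 (1.154), Gm7759 (1.19) and Gm40161 (1.21), all distant on this log2 scale. Among the members, the nearest to Psma7 was Psma2 at 1.54. The entries nearest to the mean profile of Psma1 to Psma6 were Lyplal1 (0.10), 1810058I24Rik (0.11), Mpc2 (0.11), Ptprj (0.12) and Dad1 (0.13). Of the members themselves Psma4 was nearest to that mean (0.21) and Psma6 the farthest of the 6 (1.24).

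Genes that work with the alpha ring were counted in the same fits. In GV oocytes 0 of 7 beta subunit genes (Psmb1 to Psmb7), 0 of 4 assembly chaperones tested (Psmg1, Psmg3, Psmg4 and Pomp), 0 of 5 regulators of proteasome transcription, 0 of 3 activator caps and 0 of 6 ATPases of the 19S base were called in either direction. Of all 11062 entries at this stage 0.0994% were called higher and 0.0181% lower, so the absence of calls sets none of these lists apart. In eggs 4 of 7 beta subunit genes were called higher and 0 lower, beside the 6.53% of all entries, with a median log2 fold change of 1.16 beside 0.07. They were Psmb7 (2.42, adjusted p = 0.0411), which carries the trypsin-like site, Psmb4 (1.88, adjusted p = 0.0333), Psmb5 (1.72, adjusted p = 0.0373), which carries the chymotrypsin-like site, and Psmb1 (1.16, adjusted p = 0.0441), all by limma. Mean FPKM of Psmb7 was 7.93 ± 0.74 in WT MII and 58.6 ± 47.4 in Psma7 cKO MII (SD, n = 4), beside 300.1 ± 44.5 in WT GV oocytes. Psmb4 and Psmb5 lay near the floor of 1 FPKM in WT MII, at means of 0.953 and 1.23 FPKM, beside 4.50 and 4.95 in Psma7 cKO MII. Their fold changes and calls therefore depend on the floor. All 4 called beta genes were among the genes that fell in WT maturation. There 4 of 7 beta genes were called lower and 1 higher, beside 52.4% and 26.1% of all entries, shares at which the counts set the list little apart. Their median was -2.72 beside -0.44 over all entries. Psmb7, Psmb4 and Psmb5 fell over 10-fold in WT, so leaving out libraries chosen by such transcripts is no independent check of them. Without Psma7 cKO MII replicates 3 and 4, 3 of 7 beta genes were called higher, with a median of 0.78, and the values were 1.23 for Psmb7, 1.12 for Psmb4, 1.06 for Psmb5 and 0.78 for Psmb1, which was not called (limma adjusted p = 0.0625). Of the chaperones 1 of 4 was called higher in eggs, Psmg3 (0.87, adjusted p = 0.0340), part of a chaperone that acts on the alpha ring, and of the base ATPases 1 of 6, Psmc3 (0.80, adjusted p = 0.0418), whose tail docks between alpha subunits. Neither list had a call without those 2 libraries, in a fit in which the calls over all entries went from 761 to 251, and the values were then 0.66 for Psmg3 (adjusted p = 0.105) and 0.61 for Psmc3 (adjusted p = 0.0531). No regulator, Nfe2l1 included, and no activator cap was called in eggs. Of the inducible and tissue beta subunits (Psmb8 to Psmb11) only Psmb11 passed the filter, in GV oocytes, and it was not called. In WT maturation 3 of 4 chaperones, 3 of 5 regulators, 2 of 3 caps and 5 of 6 base ATPases were called lower, beside 52.4% of all entries. The remaining cap, Psme4 (1.40, limma adjusted p = 4.60e-06), was called higher, beside 26.1% of all entries. In Psma7 cKO maturation 3 of 4 chaperones, 4 of 5 regulators, 2 of 3 caps, 5 of 6 base ATPases and 4 of 7 beta genes were called lower, beside 51% of all entries. There 1 cap, 1 base ATPase and 1 beta gene were called higher, beside 23% of all entries. The comparisons of genotype and of stage share libraries, so their counts are not independent.

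**Figure D5:**
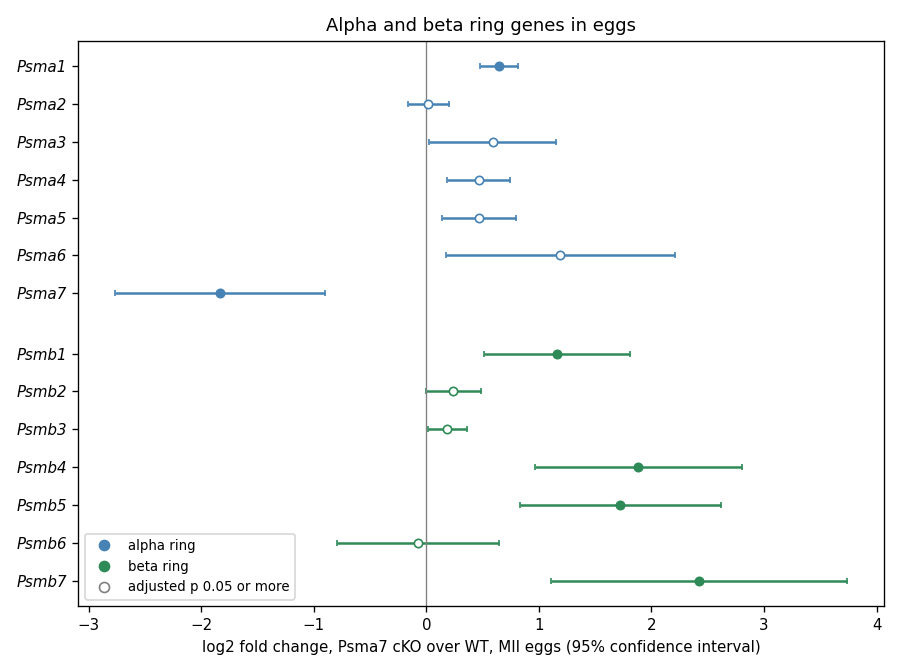
log2 fold changes, Psma7 cKO over WT, of 7 alpha ring and 7 beta ring genes in MII eggs with 95% confidence intervals. Filled points passed a limma adjusted p of 0.05. In the alpha ring Psma1 was called higher and Psma7 lower, and in the beta ring Psmb1, Psmb4, Psmb5 and Psmb7 were called higher.

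The ratio of summed alpha FPKM without Psma7 to summed beta FPKM at the GV stage was 0.919 ± 0.047 (SD, n = 4) in WT, beside 0.959 ± 0.059 in Psma7 cKO. It was 2.56 ± 0.16 in WT and 2.36 ± 0.33 in Psma7 cKO eggs, so the egg libraries of both genotypes lay above all GV libraries, and Psma7 cKO egg replicate 3 was the lowest among eggs at 1.90. In WT this difference rested on Psma2 and Psmb7. With both left out, a choice made after seeing the data, the ratio was 0.909 ± 0.068 in WT GV oocytes and 0.891 ± 0.069 in WT eggs, with overlapping libraries. In Psma7 cKO it was then 0.978 ± 0.067 in GV oocytes and 1.13 ± 0.070 in eggs, where the 4 libraries lay above those of the GV stage.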

How the data were processed

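The 16 RNA-seq libraries formed 4 groups of 4, by genotype and stage. According to the study's methods, Smart-seq2 cDNA primed with oligo-dT was sequenced and quantified with Cufflinks 2.2.1. The submitters' processing notes also list TopHat2 2.1.1 and mm10, and the gene annotation is not given in the sources used here. The authors deposited 1 table of FPKM, which was used without further scaling. Values below 1 FPKM were set to 1, entries whose mean over the compared libraries reached 1 FPKM were tested on log2 values with limma 3.58.1 (R 4.3.3; empirical Bayes with an intensity trend), and p-values were Benjamini-Hochberg adjusted over all entries tested, with a threshold of 0.05. Fold changes of genes near the floor are understated. Each contrast used its own 8 libraries, the interaction all 16, and single values an exact permutation test (two-sided, 70 arrangements). On simulated data with 200 entries changed by a log2 value of 2, limma recovered 94.5% to 99.5% of them, and 5.50% to 11.2% of its calls were false (8.92% in the egg comparison). Recovery at the size of the partner differences in eggs, from 0.02 for Psma2 to 1.19 for Psma6, was not tested. In the real egg libraries the calls went from 761 to 3 without WT MII replicate 3. Whether the simulated rates carry over to those libraries was not tested. The labels give 5 oocytes per sample and the paper another number. Members and gene lists were chosen with earlier results of these data known, and from the lists at most 4 called genes per comparison were named. Promoters came from RefSeq and transcripts from GENCODE M21. Depth was estimated from FPKM steps with transcript lengths, and counts per gene were not given. The estimate was within 0.313% on 3 simulated libraries, which were made and read with the same lengths. In the real libraries a share of 0.256 to 0.283 of the steps fell on whole fragments. The simulated error therefore does not carry over to the depths or to the fragments estimated per gene. Protein sequences were not used here, and the 3′ end of Psma7 is not reported here. Alternatives were a floor of 0.1 FPKM, log2(FPKM + 1), rescaling, other filters, no trend, a replicate block, a joint fit of all libraries, summed entries and libraries left out.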

Additional observations from a re-analysis of the deposited data

Results flagged for a closer look

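Psma5 in Psma7 cKO MII replicate 4 was 103.3 FPKM, far below the other 3 libraries of its group, which held 149.3 to 152.3 FPKM. Among 32 combinations of a member and a group checked for a library far from the others it was the only one, and chance flags about 1 in 20. Without that library Psma5 was called higher in Psma7 cKO eggs (log2 fold change 0.60, limma adjusted p = 0.0345). Of the 50-base stretches of Psma5, 55.4% occur in other annotated genes, and the part of this in the low value was not tested.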

How the results depend on the processing

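Psma7 in GV oocytes kept its direction and call in every setting. In eggs Psma7 was not called under the replicate block (-1.83), and ranged from -2.10 to -1.38 with 1 library left out. In WT maturation it was not called under rescaling (-0.11) or, at an unchanged -0.41, with no filter, no intensity trend, the replicate block or all 16 libraries in one fit (-0.57 to -0.30 without 1 library). In Psma7 cKO maturation it was not called with no filter (1.27) or without Psma7 cKO MII replicates 3 and 4 (0.87, chosen after seeing the data), and ranged from 1.005 to 1.72 without 1 library, and its interaction from 1.41 to 2.13. Partners called higher in eggs numbered 4 with no filter, 2 with a mean of at least 5 FPKM, 2 under the replicate block, 4 with all 16 libraries in one fit, and 0 to 3 without 1 library, against 1. The calls over all entries were then, in that order, 1051, 744, 108, 1582 and 3 to 1160, against 761. In WT maturation 3 partners were called higher after rescaling, against 1, with 8282 entries called in all, against 8224. The interaction called 0 to 1 partners without 1 library, with 41 to 651 entries called in all, against 134. The no-filter fits have mostly zero variances, so limma's moderation is unreliable there. Signs reversed only for members that were not called. With rescaling these were Psma6 in GV oocytes (-0.0017) and Psma2 in eggs (-0.019). With 1 library left out, the ranges were -0.21 to 0.018 (Psma2), -0.19 to 0.023 (Psma3), -0.080 to 0.059 (Psma4), -0.032 to 0.13 (Psma5) and -0.082 to 0.15 (Psma6) in GV oocytes, -0.026 to 0.062 (Psma2) in eggs and -0.035 to 0.13 (Psma5) in WT maturation. The causes were not tested. Replicate numbers did not pair libraries: deviations of same-numbered libraries correlated at -0.50 to 0.29 over 24 pairs, 6 of them over 0.1. The block took the calls over all entries in eggs from 761 to 108. Values under 1 FPKM rest on few fragments.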
